A study of Dunaliella tertiolecta UTEX 'LB 999' with 2 samples.

Results

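The core histone genes of the green alga Dunaliella tertiolecta were followed through 8 transcript contigs, of 234 contigs that the authors listed as different between 8 h and 4 h after a shift to stronger light. They were taken as every listed contig whose protein name calls it a histone, or whose symbol is HTA4, HTB2, HTB26 or HFO26, leaving out enzymes that modify histones and proteins that escort them. All 8 were in the list of contigs lower at 8 h, and 0 were in the list of contigs higher at 8 h. Among all listed contigs 42.7% were in the lower list, so the lists themselves fix a direction for every entry.

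Dunaliella tertiolecta is a wall-less, salt-water flagellate. Cells of strain UTEX LB-999 grew at steady state in a chemostat, a vessel held constant by steady inflow, at 25 °C with 0.5 M NaCl under light of 40 µmol photons per square metre and second. Light was then raised to 400 of these units, and messenger RNA was sequenced from 1 sample at 8 h and 1 sample at 4 h after that change, with both samples sharing strain, medium and light history. No sample from before the shift was analysed here, and with 1 library per time point there is no replicate spread, so each difference is one between 2 libraries.

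Core histones are small basic proteins around which nuclear DNA is wound. A nucleosome holds a pair each of H2A, H2B, H3 and H4, with H3 and H4 at its centre and H2A with H2B on either side. In green algae as in animals and plants, most histone mRNA is made while DNA is being copied, and it is abundant in dividing cultures. Some histone genes encode variants that are placed into chromatin outside of DNA synthesis.

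Levels are the authors' means in RPKM, reads scaled to contig length and to the reads of the library. They can be compared between contigs, but where contigs share reads each level depends on how those reads were divided. The column taken as 8 h is headed annotation and the one taken as 4 h is headed Bacillus_subtilis. They were assigned as numerator and denominator of a ratio whose contrast reads 8 vs 4. Reads were computed back from RPKM and contig length for library totals of 674129 at 8 h and 556037 at 4 h. A ratio is the level at 8 h over that at 4 h. Its 95% interval is the exact Clopper-Pearson interval on whole-rounded reads, and covers counting error only. In a bulk sample of cells, fewer cells copying their DNA and less histone RNA per cell cannot be told apart. The library kit selects RNA with a poly(A) tail, and how the tails of histone mRNA bear on the levels was not tested.

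Summed, the core histone contigs stood at 1434 RPKM at 8 h and 3296 RPKM at 4 h. That is 2.30-fold lower at 8 h, with an interval of 2.06 to 2.60. In reads, the sum was 436.4 at 8 h and 830.7 at 4 h. These were 0.0647% of the library at 8 h (exact interval 0.0587% to 0.0710%) and 0.149% at 4 h (0.139% to 0.160%), and these intervals did not overlap. Leaving out any 1 of the 8 contigs kept the log2 ratio of the sum between -1.27 and -1.15, beside -1.20 with all of them. Each of the 8 was listed as more than 2-fold lower at 8 h, so any sum of them is too. The direction of the sum and of its share of the library was thus set by the listing.

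**Figure D1:**
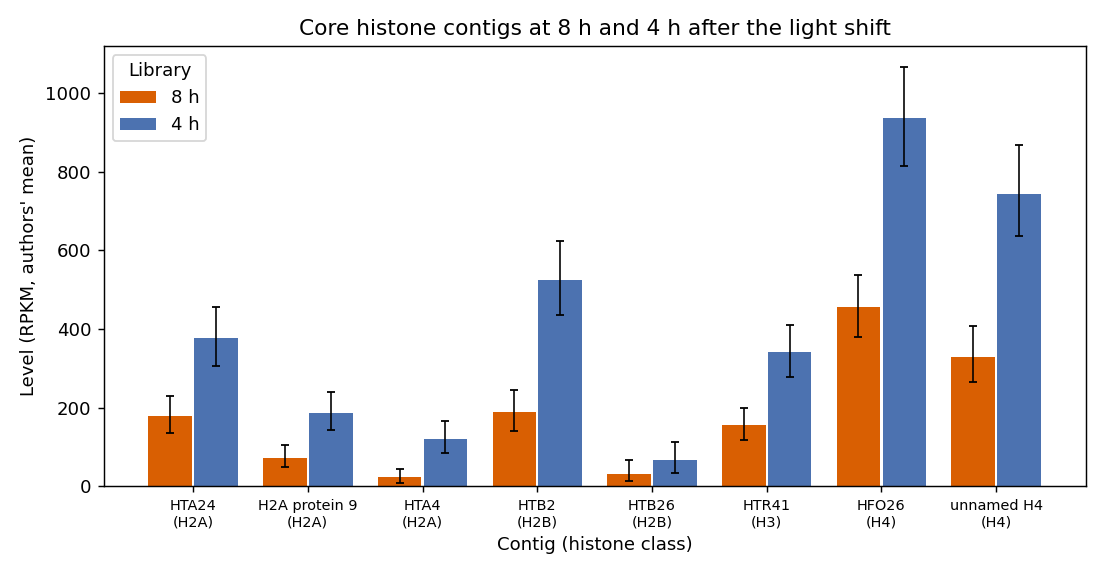
Level of each core histone contig in RPKM (vertical axis, from 0) in the 8 h library (left bar) and the 4 h library (right bar), grouped by histone class. Error bars are 95% exact Poisson intervals of the rounded reads and cover counting error only; each 8 h bar is the lower of its pair, and only for HTB26 do the error bars of the pair overlap.

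Histone H2A, which pairs with H2B and carries a tail on the nucleosome surface, was listed as 3 contigs. HTA24 had 177.8 RPKM at 8 h and 376.3 RPKM at 4 h, a ratio of 0.473 (interval 0.337 to 0.661). The contig described as histone H2A protein 9 had 73.3 RPKM at 8 h and 185.9 RPKM at 4 h, a ratio of 0.394 (0.243 to 0.620). In Arabidopsis the gene of that description encodes a variant of the H2A.Z type, and whether this contig does was not analysed here. HTA4 had 23.4 RPKM at 8 h and 120.2 RPKM at 4 h, a ratio of 0.194 (0.0736 to 0.401), and was the 1 histone contig more than 4-fold lower at 8 h. At that limit 4.7% of all listed contigs were lower.

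HTA4 and HTA24 share a description, histone H2A 10, and carry the same assembly locus in their contig names, as transcripts 2 and 1 of 9. Their best hits in Chlamydomonas reinhardtii, the alga used to name the contigs, are different proteins. HTA4 held 8.49 of 66.5 reads of this pair at 8 h (12.8%, exact interval 5.30% to 22.2%) and 36.03 of 137.3 reads at 4 h (26.2%, 19.1% to 34.5%). The intervals of these shares overlap. Summed over the pair, the level was 201.2 RPKM at 8 h and 496.5 RPKM at 4 h, a ratio of 0.405 (0.297 to 0.544), which is 2.47-fold lower at 8 h. The 5.14-fold figure of HTA4 therefore holds for that contig on its own, with the reads divided between transcripts as the authors divided them.

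Histone H2B, the partner of H2A, was listed as 2 contigs with 1 best hit between them. Both are described only as histone superfamily proteins and were put with H2B by their symbols, since HTB is the plant prefix for H2B genes. HTB2 had 188.0 RPKM at 8 h and 525.3 RPKM at 4 h, a ratio of 0.358 (0.255 to 0.499), on 53.1 reads at 8 h and 122.4 at 4 h. HTB26 had 32.2 RPKM at 8 h and 66.2 RPKM at 4 h, a ratio of 0.486 (0.182 to 1.32), on 7.71 reads at 8 h and 13.1 at 4 h. The interval of HTB26 thus reaches past equal levels, the only one of the 8 to do so. HTB26 is also the shortest of them, at 355 bases, and its best hit has an E value of 1e-07, against 1e-37 or smaller for the other contigs. Summed over both contigs, H2B stood at 220.2 RPKM at 8 h and 591.5 RPKM at 4 h, a ratio of 0.372 (0.271 to 0.508).

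Histone H3, whose long tail carries many of the marks of active and silent chromatin, was listed as 1 contig, HTR41. It is described only as a histone superfamily protein and was put with H3 by its symbol, since HTR is the plant prefix for H3 genes. HTR41 had 154.9 RPKM at 8 h and 341.3 RPKM at 4 h, a ratio of 0.454 (0.326 to 0.628), on 60.1 reads at 8 h and 109.3 at 4 h.

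Histone H4, the partner of H3, was listed as HFO26 and 1 contig without a symbol, which were the most abundant of the 8 in both libraries. Both have the same general description, and HFO26 was put with H4 by its symbol, since HFO is the plant prefix for H4 genes. HFO26 had 455.3 RPKM at 8 h and 936.2 RPKM at 4 h, a ratio of 0.486 (0.388 to 0.605). The unnamed contig had 329.6 RPKM at 8 h and 744.2 RPKM at 4 h, a ratio of 0.443 (0.340 to 0.578). It was put with H4 because it has the same best hit as HFO26 and carries the same assembly locus, as transcripts 3 and 6 of 6. The H4 sum was 784.9 RPKM at 8 h and 1680 RPKM at 4 h, a ratio of 0.467 (0.395 to 0.553), or 2.14-fold lower at 8 h.

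**Figure D2:**
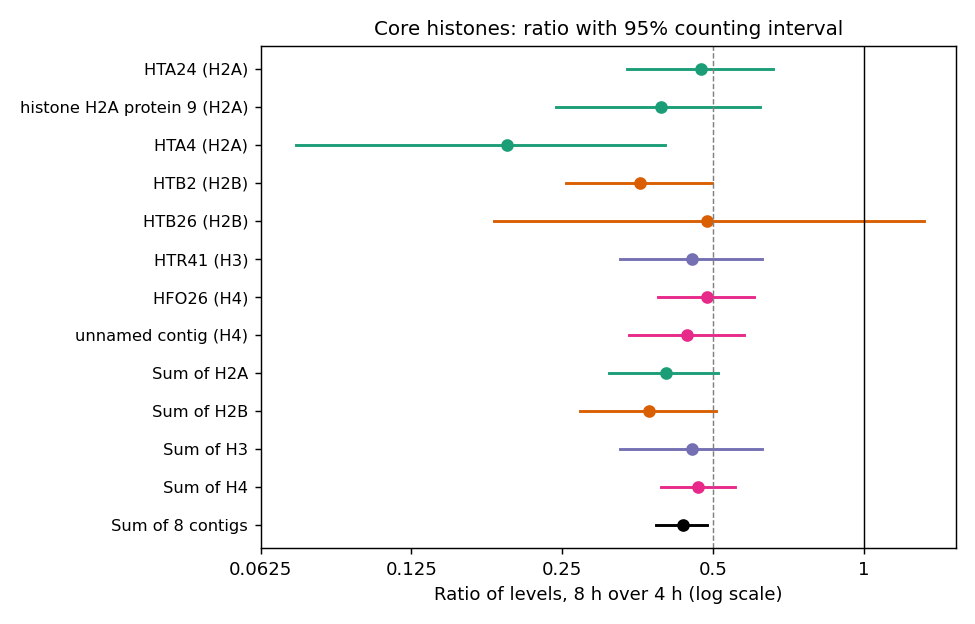
Ratio of the level at 8 h to that at 4 h (horizontal log axis) for each core histone contig, each class sum and the sum of all 8, with points for ratios and lines for 95% exact counting intervals. The solid vertical line marks equal levels and the dashed line a ratio of 0.5; HTA4 lies farthest to the left at 0.194, HTB26 alone crosses the solid line, and the class sums lie between 0.372 and 0.467.

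The classes thus stood in the order H2B, H2A, H3 and H4 from the smallest ratio to the largest. Their intervals overlapped, the difference between classes was not tested, and none is shown to differ from another. The make-up of the summed level was close in the 2 libraries. H4 supplied 54.7% of the histone RPKM at 8 h and 51.0% at 4 h. H2A supplied 19.1% at 8 h and 20.7% at 4 h, H2B 15.3% at 8 h and 17.9% at 4 h, and H3 10.8% at 8 h and 10.4% at 4 h. These are shares of the listed contigs only. The contig names count 37 transcripts at the 6 loci of the 8 contigs, and the other 29 were not analysed here. Histone transcripts that differed by less than the 2-fold limit of the lists would be among contigs not seen.

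Raw read totals, which cover every library in the authors' model, were fractional for 8 of the 8 histone contigs and for 65 of the other 226 listed contigs (28.8%). Fractions can arise where a read is divided between contigs it fits equally. Of the 8 histone contigs 7 came from loci with several transcripts, as did 94 of the other 226 (41.6%). HFO26 and the unnamed contig have raw totals of 361.0 and 272.0, both fractional, that add up to 633. Their reads add up to 220 at 8 h and 388 at 4 h, whole within 0.02 reads in each library. With reads divided between these 2 contigs alone, the H4 sum in reads does not depend on the split, whereas the level of each contig does. The H4 sum in RPKM also depends on it, since HFO26 has 425 bases and the unnamed contig 403. The H4 ratio was 0.467 in RPKM and 0.468 in shares of library reads. For HTA4 with HTA24 the sums were 66.5 reads at 8 h and 137.3 at 4 h, and for HTB2 with HTB26 they were 60.8 at 8 h and 135.5 at 4 h. These did not come out whole, as where reads are shared with transcripts outside each pair. For histone H2A protein 9 the reads were 29 at 8 h, a whole number, and 60.7 at 4 h.

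The histone contigs were short, at 355 to 587 bases, against a median of 1122 bases for the other listed contigs, of which 14 were no longer than 587 bases. Their levels were high. The 5 highest levels at 4 h among all listed contigs were histone contigs, with HFO26 first, and 7 of the highest 10 were. At 8 h 5 of the highest 10 were, and HFO26 came after a contig outside the histones at 459.4 RPKM. The median level of the 8 was 166.3 RPKM at 8 h and 358.8 RPKM at 4 h. The other 92 contigs of the lower list had medians of 8.24 RPKM at 8 h and 23.02 RPKM at 4 h. Of the summed RPKM of all listed contigs, the histones made up 21.1% at 8 h and 43.1% at 4 h. In reads, which are not scaled to contig length, they made up 8.85% of the listed total at 8 h and 21.1% at 4 h. That total also holds the contigs listed as higher at 8 h, so these shares describe the lists and not the library.

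The median log2 ratio of the 8 was -1.16, beside -1.42 for the whole lower list and 1.14 over all listed contigs, and 5 of the 8 were 2.06-fold to 2.26-fold lower at 8 h. HTB26 and HFO26, both 2.06-fold lower at 8 h, were the closest to the limit of 2. The interval of the ratio lay below 1 for 7 of 8 histone contigs, whereas it did for 23.5% of all listed contigs and 55 of the 100 in the lower list. Such an interval is narrower where reads are more numerous. The median 4 h level was 358.8 RPKM for the 8 and 23.02 RPKM for the other 92 contigs of the lower list. Contigs of the higher list have ratios above 1, so none of their intervals could lie below 1. The count of 7 is a description with no test.

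**Figure D3:**
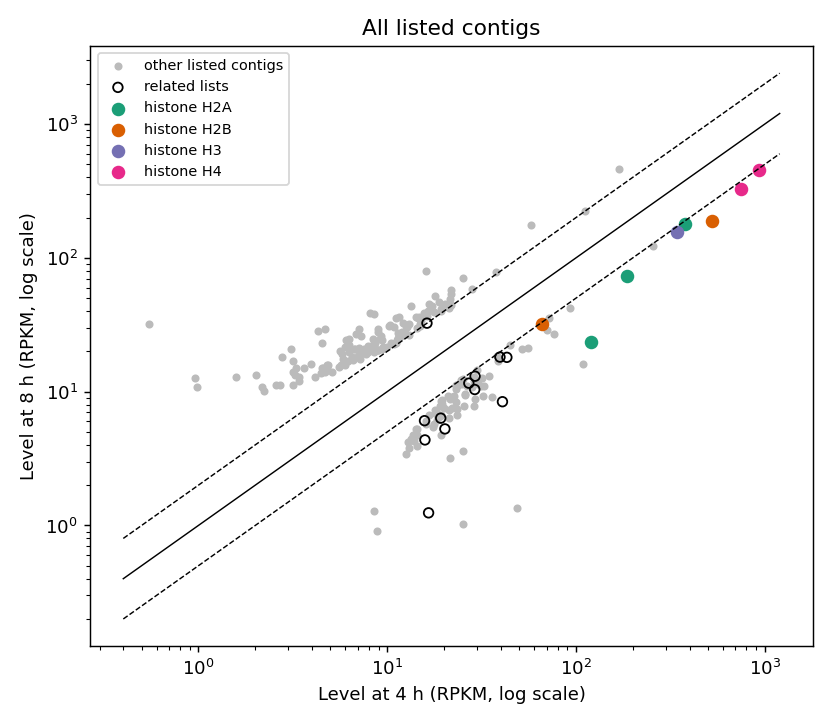
Level at 8 h against level at 4 h for the 234 listed contigs, in RPKM on log axes, with core histones as filled coloured points by class and contigs of the related lists as open circles. The solid line marks equal levels and the dashed lines the 2-fold limits of the lists; the histone contigs lie along or under the lower dashed line, at the right-hand end, with 4 h levels from 66.2 to 936.2 RPKM.

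The authors' deposited table gave the histone contigs step-up FDR values from 3.42e-34 for HFO26 to 0.0111 for HTB26. The p-values in the authors' deposited table were matched within 10%, for 8 of the 8, by a Wald test that treats RPKM as Poisson counts. Within 1%, the same Wald test matched 3 of the 8, and 228 of the 234 listed contigs. Such a p follows the RPKM value and not the number of reads. In the authors' deposited table HTB26 has a p-value of 0.000792, although its interval on 7.71 reads at 8 h and 13.1 at 4 h includes equal levels.

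Around the histones, 6 keyword lists of chromatin, replication and division genes matched 12 contigs, of which 11 were in the lower list, beside 42.7% of all listed contigs. The 11 became 9 when matches wrong by their wording were left out. The keyword lists were chosen with earlier results of these data known, so these counts are a description with no test. The interval of the ratio lay below 1 for 8 of the 12, beside 23.5% of all listed contigs. These 8 were among the 11 in the lower list, where the interval lay below 1 for 55 of 100 contigs. Among proteins that handle histones, ASF1, a chaperone that carries H3 with H4 to new DNA, had 6.34 RPKM at 8 h and 19.2 RPKM at 4 h. That was 4 reads at 8 h and 10 at 4 h, and the ratio of 0.330 had an interval of 0.0755 to 1.14, which reaches past equal levels. A high mobility group contig, of a family of proteins that bend DNA, had 10.4 RPKM at 8 h and 29.1 RPKM at 4 h, a ratio of 0.357 (0.185 to 0.657). The single histone-modifying enzyme listed, histone deacetylase 15, which belongs to the enzymes that remove acetyl groups from histone tails, was in the higher list. It had 32.5 RPKM at 8 h and 16.2 RPKM at 4 h, a ratio of 2.00 (0.948 to 4.16), so its interval includes equal levels as well.

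All 4 matches for replication and nucleotides were in the lower list. RPA70B, a subunit of the protein that coats single-stranded DNA, had a ratio of 0.419 (0.263 to 0.656), and MCM5, of the helicase that opens the DNA, 0.428 (0.234 to 0.743). RFC3, of the complex that loads the sliding clamp, had 6.07 RPKM at 8 h and 15.8 RPKM at 4 h, a ratio of 0.385 whose interval just reaches past 1 (0.133 to 1.003). CDD1, a cytidine deaminase of nucleotide salvage, had 1 read at 8 h and 11 at 4 h, a ratio of 0.0750 (0.00174 to 0.516). These ratios and those of the histone class sums have overlapping intervals.

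In chromosome structure, SMC4, by its symbol a condensin subunit, had 5.27 RPKM at 8 h and 20.2 RPKM at 4 h, a ratio of 0.260 (0.124 to 0.509). Its description reads structural maintenance of chromosome 3, which differs from the symbol, and which of these holds was not analysed here. In the cell cycle, CDKA1, a cyclin-dependent kinase, had a ratio of 0.275 (0.0782 to 0.796), and kinesin 5, a spindle motor, 0.447 (0.266 to 0.735). LSM7 and LSM2 matched the list for histone mRNA processing by their symbols alone, since they are general Sm-like proteins. Their ratios were 0.206 (0.0373 to 0.764) for LSM7 and 0.458 (0.121 to 1.52) for LSM2. No stem-loop binding protein, which processes histone mRNA in animals, was matched. Chosen after their values were seen, a DEK domain chromatin protein and a contig named chromatin remodeling 1 were in the lower list too, at ratios of 0.300 (0.0697 to 1.01) and 0.344 (0.0949 to 1.05).

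**Figure D4:**
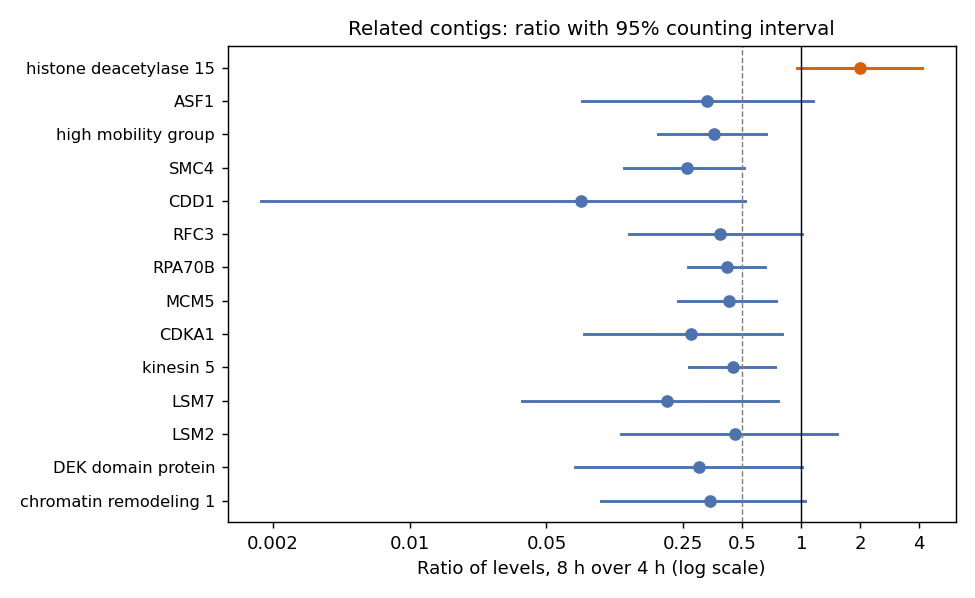
Ratio of the level at 8 h to that at 4 h (horizontal log axis) for the 12 contigs of the related lists and, in the last 2 lines, a DEK domain protein and chromatin remodeling 1, with 95% exact counting intervals as lines. The solid vertical line marks equal levels and the dashed line a ratio of 0.5; histone deacetylase 15 alone lies to the right of the solid line, and the interval of CDD1, on 1 read at 8 h, is the widest.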

How the data were processed

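The authors' deposited data are 2 lists of contigs, one higher and one lower at 8 h, and contigs outside them were not analysed here. The submitters' processing notes name Partek, and the aligner and assembler were not given in the sources used here. Libraries came from a stranded mRNA kit, per the labels' protocols, which selects poly(A) RNA; how the tails of histone mRNA bear on the levels was not tested.

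Deposited means are RPKM, a scale seen in the values, and the deposited ratio is 8 h over 4 h. The deposited p-value and FDR come from the authors' Poisson model. The deposited raw total is an estimated count over all libraries of that model, and the deposited E value is a score of the best hit. The raw maximum per library gave the library totals, within 0.01%, for 134 of 134 contigs of the higher list and 97 of 100 of the lower list. Reads were whole, within 0.001, for all 161 contigs with whole totals; others were rounded for intervals, which were tested on simulated data.

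No test between time points was run, because each has 1 library, and whether these came from separate cultures is not stated. Contigs, classes and keyword lists were chosen with earlier results of these data known. Every histone contig and every contig of the related lists is named. Alternatives were pseudocounts of 1 and 0.1 RPKM, at least 10 reads, summed reads, each contig left out, an E value under 1e-20, repeated best hits counted once, and wrongly worded matches left out. Counts and sums by locus, sums by best hit, and class sums without each contig were added after the values were seen. Scripts ran on scipy 1.17.1, pandas 2.3.3, numpy 2.4.6 and Python 3.11.15, with figures from matplotlib 3.10.9.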

Additional observations from a re-analysis of the deposited data

Results flagged for a closer look

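The authors' raw totals hold histone reads that belong to neither labelled library. Over the 8 contigs 74.3 of 1341 raw reads were outside the 8 h and 4 h libraries (5.54%), beside 15.2% over all listed contigs and 20.7% over the lower list. The deposited normalized total, together with the raw total, allows these reads to be divided if they come from exactly 2 further libraries. With totals of 178808 and 241504 reads for such libraries, 144 of 144 contigs with a whole raw total and at least 1 such read gave whole reads in each, within 0.05 reads. Both totals were derived from the contigs with exactly 1 such read. Those contigs are among the 144, and for them whole reads were fixed in advance. The labels used here describe neither library, so their values are given on their own, and this division was chosen after the values were seen.

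In the further library of 178808 reads, the 8 histone contigs held 47.2 reads, or 0.0264% of it (exact interval 0.0193% to 0.0350%). There 6 of the 8 exceeded 3 reads, the limit set here for a count of 0. In the further library of 241504 reads they held 27.1 reads, or 0.0112% (0.00737% to 0.0163%), and 5 of the 8 exceeded 3 reads. Both sums lie above this limit of 3 reads, which is why they are given. Passing the limit was not a test of presence. In RPKM the summed histone level was 553.3 in the first and 234.5 in the second. The other listed contigs had a summed level of 5296 RPKM in the first and 1308 RPKM in the second, and a median of 9.03 RPKM in the first and 3.29 RPKM in the second.

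Contig by contig, the unnamed H4 contig was the highest in both, at 121.4 RPKM in the first and 71.2 RPKM in the second. Histone H2A protein 9 came next in the first at 95.2 RPKM, with 35.3 RPKM in the second. HTA24 had 87.1 RPKM in the first and 34.3 RPKM in the second. HFO26 stood below both of these, at 82.1 RPKM in the first and 30.0 RPKM in the second. HTR41 had 73.2 RPKM in the first and 48.3 RPKM in the second. HTB2 had 4.44 reads in the first, or 59.3 RPKM, and its reads in the second round to 0. HTA4 had 1.44 reads in the first, and its reads in the second round to 0 as well. HTB26 had 1.27 reads in the first and 1.31 in the second. The 2 H4 contigs again add up to whole reads, 15 in the first and 10 in the second, within 0.02 reads.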

How the results depend on the processing

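Of 57 alternatives, 56 left a ratio within its counting interval or a count within 1.5 times, and 0 reversed a direction. Every histone contig came from the lower list, so none of these alternatives could have reversed the direction of a histone ratio. The log2 ratio of the summed histones ran from -1.27 to -1.15. The limit of at least 10 reads removed none of the 8 histone contigs. A pseudocount of 1 RPKM is small beside histone levels of 23.4 RPKM or more. Neither could therefore move the histone values far. The 1 value that moved was HTA4, at -2.36 on its own and -1.30 when summed with HTA24 of the same locus; 9 transcripts are named there, and how reads were divided among them was not tested. The 8 histone contigs made 6 when repeated best hits, or loci, were counted once, and 7 with an E value under 1e-20. The 11 related contigs in the lower list became 9 without the wrongly worded LSM matches. No paired analysis was possible because each time point has 1 library and no test was run. At this depth the intervals of HTB26, ASF1, RFC3, LSM2, histone deacetylase 15, the DEK domain contig and chromatin remodeling 1 include equal levels.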
